A study of Mus musculus with 64 samples.

Results

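The genes described here are 40 imprinted genes of the mouse, followed through RNA-seq of male germ cells and whole testes. They were taken as the rows of the deposited gene tables whose symbol matched the list. A row was found for 36 of the 40, among 26385 genes, and no row for Rian, Mirg, Kcnq1ot1 and Airn was found in the tables used here. Of the 36, 5 lie at paternally methylated loci (H19, Igf2, Dlk1, Meg3 and Rasgrf1, out of 7 listed) and 31 at maternally methylated loci (out of 33 listed). The 47 RNA-seq libraries, each from 1 mouse, comprised 20 of sorted germ cells and 27 of whole testis.

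The study examined MORC1, a GHKL ATPase needed for transposon silencing in the male germline, with the FVB/N Morc1tg allele, in which an inserted tyrosinase transgene removed exons 2 to 4 of Morc1. Homozygous Morc1tg/tg germ cells were compared with heterozygous Morc1tg/+ germ cells on embryonic day E16.5 and on E18.5 (2 libraries per genotype each), on postnatal day P2.5 (3 Morc1tg/+ and 2 Morc1tg/tg) and on P10.5 (4 Morc1tg/+ and 3 Morc1tg/tg). From E16.5 to P2.5 the cells came from a mixed background carrying the Oct4-IRES-eGfp reporter and were sorted for GFP, whereas at P10.5 they were sorted as EPCAM-high, MHCI-negative cells of low side scatter without a reporter. Whole Morc1tg/tg testes were compared with controls at P10.5 (3 against 2 Morc1tg/+ and 1 wild type; a further preliminary pair of control libraries was set aside) and at P14.5 (3 against 3 Morc1tg/+). Whole P10.5 testes of 2 other lines were available: 3 Dnmt3l-/- against 3 heterozygous and 3 wild-type testes, and 2 Miwi2-/- against 2 heterozygous testes. All mutants are constitutive, so in whole testis the somatic cells carry the mutation too.

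Imprinted genes are expressed from only 1 parental allele in many tissues, under the control of a differentially methylated region that is methylated in either the sperm or the egg. In male germ cells the parental marks are erased in the embryo, after which the paternally methylated regions are methylated anew before birth and the maternally methylated ones are kept free of methylation. DNMT3L is the cofactor of the de novo methyltransferases in this step, and MIWI2 (gene Piwil4) guides methylation to transposons with piRNAs. The RNA tables do not separate the parental alleles, so every value below is the sum of both.

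Sorted libraries held 2413679 to 14918478 assigned reads (median 7542692) and testis libraries 22509570 to 42137954 (median 28815956). The mutated Morc1 gene was lower in Morc1tg/tg at every stage that passed the test (log2 fold change -2.25 at E16.5, -1.56 at P2.5 and -1.05 at P10.5 in sorted cells, -1.74 and -1.43 in P10.5 and P14.5 testis), and at E18.5 the value was -2.32 (adjusted p = 0.139). Dnmt3l was lower in Dnmt3l-/- testis (log2 fold change -3.93). Piwil4, in contrast, was listed at 10.7 and 11.5 RPKM in the libraries labelled Miwi2-/- and at 6.65 and 7.01 in their controls, so that the counts over the whole gene do not mark the mutation and these libraries are named by their label throughout. In the sorted fractions the germ cell markers summed to between 399.9 and 933 RPKM, and in whole testis to between 144 and 1209.6, so their ranges overlapped. The Sertoli markers summed to between 37.6 and 95.3 in the sorted fractions, against 1333 to 2813 in whole testis. The 7 Leydig cell markers summed to between 2.51 and 17.8 RPKM in sorted libraries, the highest in an E18.5 Morc1tg/tg library, against 186 to 449.7 in whole testis. The 5 endothelial markers were not set apart in this way. They summed to between 28.7 and 38.1 RPKM in the sorted E18.5 libraries, within the range of 19.7 to 49.0 in whole testis. The 6 macrophage and blood markers reached 39.8 RPKM in a sorted E16.5 Morc1tg/tg library, against 39.2 to 208 in whole testis. In whole tissue, fewer cells of a type and less RNA per cell cannot be told apart.

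Levels below are RPKM (reads per kilobase of exon and per 1000000 mapped reads), as deposited. Differences are log2 fold changes with their standard errors (SE) from edgeR's quasi-likelihood test on the counts, and a gene was called where its p, adjusted by Benjamini-Hochberg over all genes tested in that comparison, was under 0.05. The imprinted genes took a small part of each library, from 0.160% to 0.423% of the reads in sorted control germ cells, with the highest share at E18.5 (0.412% and 0.423%) and the lowest at P10.5.

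At the 3 paternally methylated loci, H19 and Igf2 had their highest control levels at P2.5, while Dlk1 and Meg3 had theirs at E18.5. H19, a long noncoding RNA at chr7:149761434-149764048 (mm9, minus strand) that is usually made from the maternal allele, was at 7.34 and 7.35 RPKM in the E16.5 Morc1tg/+ libraries and at 6.00 and 4.83 at E18.5. It then stood at 46.0, 27.4 and 29.0 RPKM at P2.5, and at 20.0, 20.5, 14.0 and 16.53 at P10.5. All P2.5 libraries were thus above all those of the other 3 stages, and the increase from E18.5 to P2.5 was called (log2 fold change 2.48, SE 0.27, adjusted p = 5.12e-06). Igf2, the neighbouring fetal growth factor gene at chr7:149836673-149852721, read at 28.5 and 28.7 RPKM in the E16.5 controls. Those of E18.5 held 52.6 and 49.8 RPKM and those of P2.5 held 75.5, 83.2 and 92.0. It rose at both steps (log2 fold change 0.86, SE 0.13, adjusted p = 0.000184, then 0.52, SE 0.12, adjusted p = 0.0024). At P10.5 its 4 control libraries read 26.0, 23.7, 21.3 and 25.2 RPKM, below every P2.5 library. H19 and Igf2 did not keep 1 ratio across stages, since Igf2 had already gone up at E18.5, when H19 was at its lowest.

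Dlk1, which encodes a membrane-bound inhibitor of adipocyte differentiation (chr12:110691033-110701546), and Meg3, the maternally expressed noncoding RNA next to it (chr12:110779211-110809936), were highest before birth. Dlk1 held 15.4 and 19.6 RPKM in the E16.5 libraries, and those of E18.5 gave 22.7 and 20.1. After birth it was at 7.08, 5.53 and 7.28 RPKM at P2.5, without overlap with E18.5 (log2 fold change -1.88, SE 0.16, adjusted p = 4.74e-07). Meg3 was at 2.97 and 4.08 RPKM at E18.5 and at 1.74, 1.32 and 0.990 at P2.5, again without overlap (log2 fold change -1.60, SE 0.30, adjusted p = 0.000675). Rasgrf1, a guanine nucleotide exchange factor gene usually expressed from the paternal allele (chr9:89804613-89921814), read at 5.09 and 2.50 RPKM at E18.5. It was at 5.83, 5.54 and 5.89 RPKM at P2.5 and at 0.716, 1.13, 1.16 and 0.632 at P10.5. All 5 genes were lower at P10.5 than at P2.5, by log2 fold changes from -0.45 for Dlk1 to -2.37 for Rasgrf1 (SE 0.29, adjusted p = 2.33e-05). The H19 call was lost without Morc1tg/+ replicate 1 of P2.5 or replicate 3 or 4 of P10.5. Those of Dlk1 and Meg3 were lost with the replicate number as a block. They were also lost without replicate 1 of P2.5 or replicate 1 or 4 of P10.5, among others. That step changed mouse background and sorting strategy together with age, and these cannot be told apart.

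**Figure D1:**
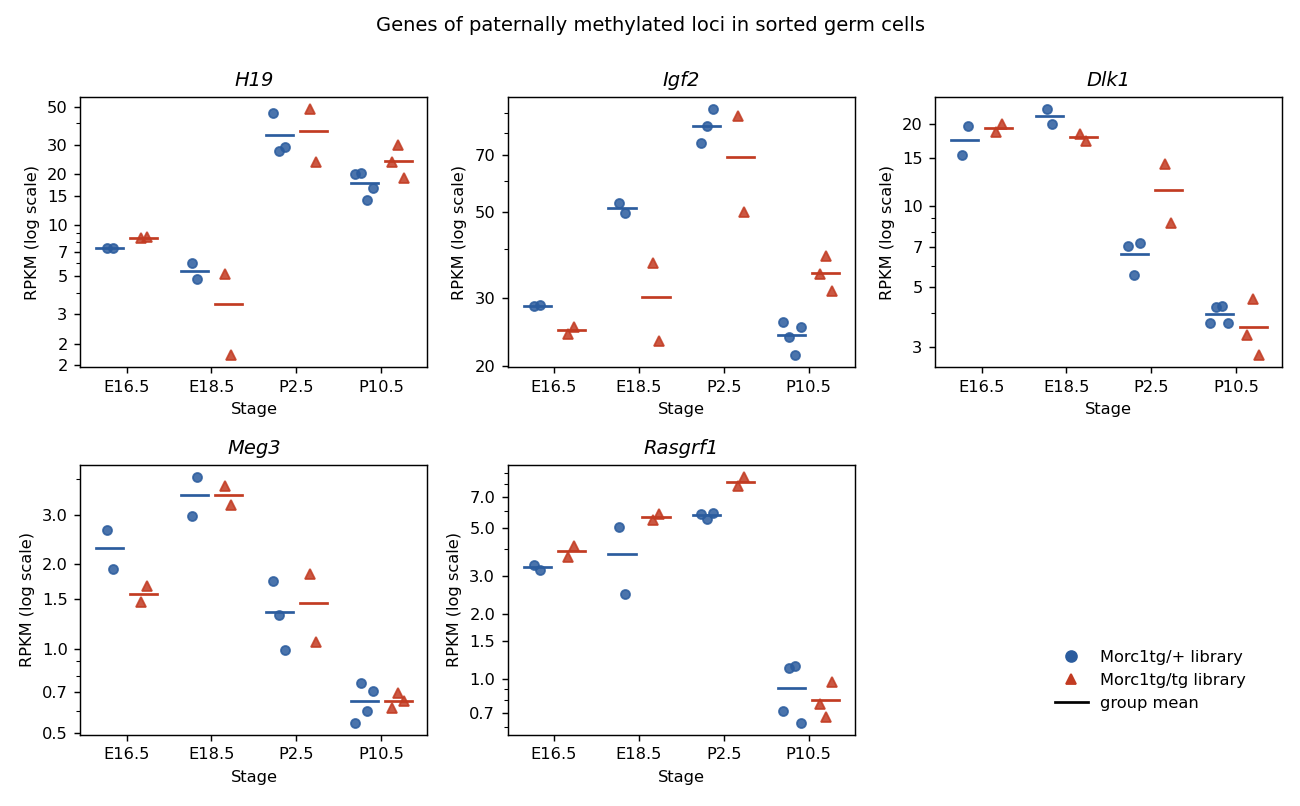
RPKM (log axis) of H19, Igf2, Dlk1, Meg3 and Rasgrf1 in each sorted germ cell library, by stage and genotype, with 1 point per library and a line at each group's mean. H19 and Igf2 peak at P2.5, Dlk1 and Meg3 are highest before birth, and Igf2 at P10.5 is the 1 case here in which the difference between Morc1tg/+ and Morc1tg/tg was called.

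Of the 30 genes at maternally methylated loci tested across the stages, 17 had their highest control mean at E18.5, 5 at E16.5, 5 at P2.5 and 3 at P10.5. Over all 16890 genes tested the shares were 25.5% at E18.5, 28.8% at E16.5, 26% at P2.5 and 19.8% at P10.5. Cdkn1c, which encodes the cell cycle inhibitor p57, stood at 29.6 and 41.5 RPKM in the E16.5 controls, 101 and 100.1 at E18.5, 17.8, 20.7 and 21.5 at P2.5, and 8.14, 7.28, 7.71 and 6.81 at P10.5. No 2 stages overlapped, and each of its 3 steps was called, with log2 fold changes of 1.54 (SE 0.16, adjusted p = 8.58e-06), -2.52 (SE 0.14, adjusted p = 1.22e-08) and -1.14 (SE 0.12, adjusted p = 8.8e-06). Mest, a gene for a hydrolase-like protein, was at 7.29 and 8.76 RPKM in the E16.5 controls, 40.6 and 21.7 at E18.5, 22.9, 27.6 and 30.4 at P2.5 and 3.88, 3.90, 4.05 and 3.26 at P10.5. The E18.5 libraries spanned those of P2.5, with a log2 fold change of -0.36 between these stages (SE 0.20, adjusted p = 0.151), and without E18.5 Morc1tg/+ replicate 2 it was called (-0.66, adjusted p = 0.0121).

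Grb10, Peg10 and Sgce fell from E18.5 to P2.5. Grb10, an adaptor that dampens growth factor signalling, read 57.0 and 72.1 RPKM at E16.5 and 93.1 and 76.7 at E18.5. It was at 14.0, 21.4 and 21.1 RPKM at P2.5 and at 5.00, 6.54, 6.49 and 6.15 at P10.5 (log2 fold change from E18.5 to P2.5 -2.34, SE 0.16, adjusted p = 6.61e-08). Peg10, derived from a retrotransposon and essential for the placenta, followed the same order, with 44.7 and 53.1, then 78.4 and 69.2, then 13.02, 14.60 and 14.46, then 4.54, 4.48, 5.14 and 4.98 RPKM (log2 fold change across birth -2.58, SE 0.11, adjusted p = 9.39e-10). Sgce, which starts beside Peg10 on the other strand and encodes epsilon-sarcoglycan, went from 4.92 and 7.70 RPKM to 0.202, 0.312 and 0.295, a value resting on 2 to 7 reads per P2.5 library (log2 fold change -4.70, SE 0.61, adjusted p = 2.46e-05). Ube3a, the E3 ubiquitin ligase gene mutated in Angelman syndrome, went the other way after birth, from 6.08, 9.86 and 8.65 RPKM at P2.5 to 14.9, 14.4, 13.2 and 15.2 at P10.5 (log2 fold change 1.09, SE 0.15, adjusted p = 7.25e-05). Peg12 had 0 reads in both E18.5 control libraries against 51 reads in the P2.5 libraries together. On pooled reads this was 8.69-fold higher when the floor is set at 3 reads over the E18.5 group, yet 1 of the 3 P2.5 libraries had none. Its call as higher was lost with the replicate number as a block or without either E18.5 library. Without P2.5 replicate 2 or 3 it was not tested.

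Counted together, 9 of 35 members tested rose and 1 fell from E16.5 to E18.5, when 18.7% of all genes were called (8.13% higher, and 1778 of 16890 genes lower), and the members' median log2 fold change was 0.56 against -0.07 over all genes tested. From E18.5 to P2.5, 4 rose and 12 fell (background 39.1% of genes, 18.1% higher and 21% lower; median -0.56 against -0.07). From P2.5 to P10.5, 3 rose and 12 fell (background 27.6%, 13.4% higher and 14.2% lower; median -0.38 against 0.02). Over the 3 steps 10, 16 and 15 of the 35 members were called. At the first, besides Igf2 and Cdkn1c, the log2 fold changes were 1.95 for Mest, 1.87 for Snrpn, 1.51 for Gnas, 1.08 for Peg3, 0.87 for Ppp1r9a, 0.65 for Ube3a and 0.62 for Peg10, and Copg2 fell (-1.07), while H19 (-0.43), Dlk1 (0.31), Meg3 (0.65) and Rasgrf1 (0.18) were not called. At the second, Inpp5f also rose (0.56), and Zim1 (-2.47), Ppp1r9a (-1.59), Plagl1 (-1.59), Zrsr1 (-1.18), Peg3 (-0.88) and Ube3a (-0.56) also fell, while Rasgrf1 was not called. At the third, H13 (0.60) and Ppp1r9a (0.52) rose with Ube3a, and Mest (-2.55), Igf2 (-1.51), Grb10 (-1.36), Peg10 (-1.27), Plagl1 (-1.12), Meg3 (-0.75) and H19 (-0.66) were among those that fell, as were Slc22a18 and Klf14, with 1 to 5 and 0 to 2 reads per P10.5 library. The count at the first step ranged from 6 without E16.5 Morc1tg/+ replicate 2 to 16 without E18.5 Morc1tg/+ replicate 1. Cell markers moved at these steps too. Undifferentiated spermatogonial markers rose from E16.5 to E18.5 (5 of 8) and from E18.5 to P2.5 (6 of 8; median 2.57) and fell from P2.5 to P10.5 (6 of 8; median -0.89). Stromal markers fell between E18.5 and P2.5 (4 of 7 called lower; summed level 16.4 to 19.2 RPKM before, 4.70 to 10.9 after). The endothelial markers summed to 15.4 to 19.1 RPKM in the E16.5 controls, 33.4 to 38.1 at E18.5 and 16.4 to 21.9 at P2.5. From P2.5 to P10.5, 5 of 9 Sertoli markers rose (median 1.29) and 3 of 5 endothelial markers fell (median -2.89). The part of these markers in the member values was not tested.

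**Figure D2:**
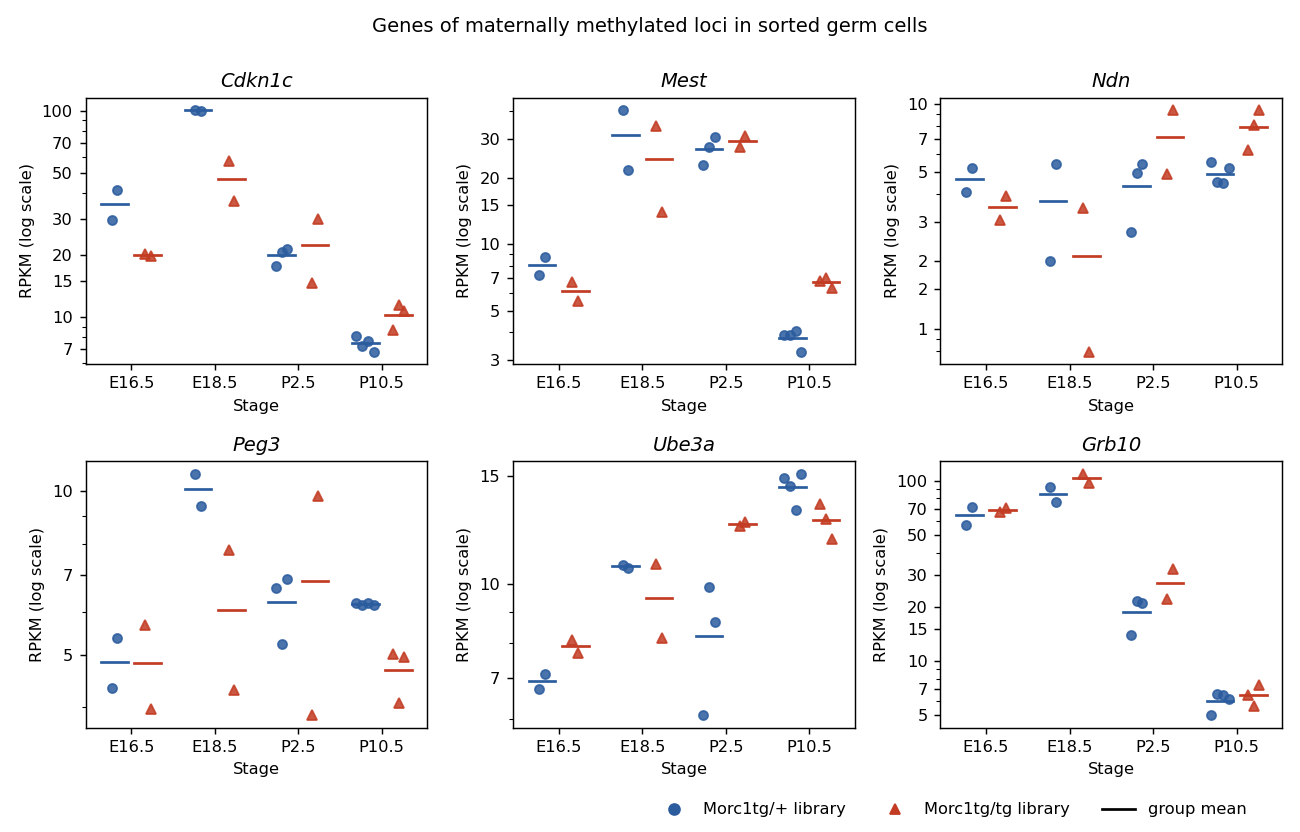
RPKM (log axis) of Cdkn1c, Mest, Ndn, Peg3, Ube3a and Grb10 in each sorted germ cell library, by stage and genotype, with 1 point per library and a line at each group's mean. Cdkn1c and Grb10 peak at E18.5 and fall after birth, and the Morc1tg/tg points of Cdkn1c lie below the Morc1tg/+ points at E16.5 and E18.5.

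The first genotype comparison asked whether the imprinted genes changed in Morc1tg/tg germ cells while methylation is laid down. At E16.5 Cdkn1c was the single member called. Its level was 29.6 and 41.5 RPKM in Morc1tg/+ and 20.3 and 19.8 in Morc1tg/tg, without overlap (log2 fold change -0.90, SE 0.13, adjusted p = 0.000698). Thus 1 of 35 members tested was called, and it fell, where 0.421% of all genes were called and nearly all of those rose (0.385% higher, 0.0361% lower). Among the cell type markers at this stage the red cell globin Hbb-b1 was the only one called (log2 fold change 1.67, adjusted p = 0.0151). The 6 macrophage and blood markers summed to 8.32 to 21.6 RPKM in Morc1tg/+ and 38.6 to 39.8 in Morc1tg/tg, and their part in the Cdkn1c value was not tested.

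The genes at paternally methylated loci were not called at E16.5. H19 read 7.34 and 7.35 RPKM in Morc1tg/+ and 8.45 and 8.51 in Morc1tg/tg (log2 fold change 0.12, SE 0.19, adjusted p = 0.913). Igf2 read 28.5 and 28.7 against 24.2 and 25.2 RPKM (log2 fold change -0.30, SE 0.11, adjusted p = 0.357), and Meg3 read 2.65 and 1.92 against 1.46 and 1.67 RPKM (log2 fold change -0.65, SE 0.19, adjusted p = 0.184). The genotypes did not overlap for these 3 genes, nor for Rasgrf1, at 3.40 and 3.22 in Morc1tg/+ and 3.70 and 4.14 RPKM in Morc1tg/tg, as was so for 17 of the 35 members and 35.9% of all genes tested. Meg3 passed it in 4 alternatives, namely without a filter on low counts (adjusted p = 0.0209), with the replicate number as a block, without Morc1tg/+ replicate 2 and without Morc1tg/tg replicate 2. The last 2 set 1 library against 2 and take the lone library to vary like the other genotype, as does each fit that leaves out a library at E16.5, at E18.5 or in the Miwi2 line. The differences of these 4 genes did not pass the test. Dlk1 and Rasgrf1 had log2 fold changes of 0.07 (SE 0.11) and 0.15 (SE 0.20).

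At E18.5 no member was called by edgeR, where 0.0416% of all genes were called. DESeq2 called 4 members and 273 of all genes. At an unadjusted p under 0.05 there were 5 of 35 members, and the share of all genes at that threshold was not counted. Cdkn1c again had the lower level in Morc1tg/tg, at 57.1 and 36.7 RPKM against 101 and 100.1 (log2 fold change -1.02, SE 0.20, adjusted p = 0.241), without overlap. DESeq2 called Cdkn1c, Igf2, Copg2 and Grb10, and edgeR called Cdkn1c without a filter on low counts (adjusted p = 0.00112), with the replicate number as a block (adjusted p = 0.0326) and when Morc1tg/+ replicate 1 was left out (log2 fold change -1.12, adjusted p = 0.0146). Igf2 was at 37.0 and 23.1 RPKM against 52.6 and 49.8, without overlap (log2 fold change -0.68, SE 0.19, adjusted p = 0.598). The Morc1tg/tg libraries of E18.5 were among the shallowest of the series, and H19 read 5.19 and 1.72 RPKM in them against 6.00 and 4.83 in Morc1tg/+ (log2 fold change -0.59, SE 0.66). Dlk1, Meg3 and Rasgrf1 had log2 fold changes of -0.14, 0.09 and 0.74, with adjusted p from 0.881 to 1.00. Rasgrf1 was at 5.09 and 2.50 RPKM in Morc1tg/+ and at 5.48 and 5.85 in the Morc1tg/tg libraries. Germ cell markers summed to 509.9 and 599.8 RPKM in these libraries against 633 and 689.7 (0 of 8 called, 3 at an unadjusted p under 0.05; median -0.42), and their part in the member values was not tested.

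At P2.5 again no member was called by edgeR, where 0.0486% of all genes were (0.0416% higher and 0.00694% lower). DESeq2 called 0 members and 21 of all genes. At an unadjusted p under 0.05 there were 4 of 35 members, and the share of all genes at that threshold was not counted. Dlk1 was at 14.3 and 8.59 RPKM in Morc1tg/tg against 7.08, 5.53 and 7.28 (log2 fold change 0.77, SE 0.29, adjusted p = 0.968), and Rasgrf1 at 7.83 and 8.65 against 5.83, 5.54 and 5.89 (0.49, SE 0.29). Both had no overlap between genotypes, as was so for 9 of the 35 members and 21.3% of all genes tested. The paper reports normal methylation at H19 and Dlk1-Gtl2 in the mutant. At the imprinting control region of Rasgrf1 it reports more transcription and less methylation. Counts over the Rasgrf1 gene, as used here, do not measure that control region. Sgce read 2.90 and 2.11 RPKM in Morc1tg/tg against 0.202, 0.312 and 0.295 (log2 fold change 3.15, SE 1.24, adjusted p = 0.968), a contrast of 27 and 48 reads with 2, 7 and 7. H19 was at 48.4 and 23.7 RPKM against 46.0, 27.4 and 29.0, Igf2 at 88.6 and 49.9 against 75.5, 83.2 and 92.0, and Meg3 at 1.84 and 1.06 against 1.74, 1.32 and 0.990 (log2 fold changes 0.06, -0.28 and 0.07), all overlapping. Cdkn1c, at 14.7 and 30.1 RPKM against 17.8, 20.7 and 21.5, overlapped. Stromal markers had a median of 1.18 in the same comparison (0 of 5 called, 3 at an unadjusted p under 0.05; summed level 6.89 to 15.1 against 4.70 to 10.9 RPKM), and their part was not tested.

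At P10.5, 5 of the 31 members tested were called in sorted germ cells, where 12.2% of all genes were (6.43% higher and 5.79% lower). Igf2, Ndn and Mest rose, while Peg3 and Ube3a fell. By usual parental origin, 3 of 18 paternally expressed members rose and 1 fell (Peg3), and 1 of 11 maternally expressed members fell (Ube3a). Igf2 was at 34.6, 38.5 and 31.3 RPKM in Morc1tg/tg and at 26.0, 23.7, 21.3 and 25.2 in Morc1tg/+ (log2 fold change 0.45, SE 0.08, adjusted p = 0.000387). Mest was at 6.84, 7.06 and 6.31 against 3.88, 3.90, 4.05 and 3.26 RPKM (log2 fold change 0.76, SE 0.15, adjusted p = 0.001). Neither gene had any overlap between the genotypes. Ndn, which encodes the growth suppressor necdin, was at 6.24, 8.08 and 9.43 against 5.53, 4.50, 4.44 and 5.18 RPKM, also apart (log2 fold change 0.61, SE 0.17, adjusted p = 0.0196). Its call was lost without Morc1tg/+ replicate 3 or Morc1tg/tg replicate 3.

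Peg3, a zinc finger gene, was nearly level across the controls at 6.22, 6.17, 6.23 and 6.16 RPKM and lower in Morc1tg/tg at 5.01, 4.07 and 4.95 (log2 fold change -0.48, SE 0.10, adjusted p = 0.00203). Ube3a was at 13.5, 12.8 and 11.8 against 14.9, 14.4, 13.2 and 15.2 RPKM, with an overlap, and its call (log2 fold change -0.26, SE 0.09, adjusted p = 0.0474) was lost under 7 alternatives, among them leaving out Morc1tg/+ replicate 1, 2 or 4 or Morc1tg/tg replicate 2 or 3. H19 was at 23.6, 29.9 and 19.1 against 20.0, 20.5, 14.0 and 16.53 RPKM, overlapping (log2 fold change 0.36, SE 0.12, adjusted p = 0.0565). H19 was called in 4 alternatives, namely without a filter on low counts (adjusted p = 0.00740), with the replicate number as a block, without Morc1tg/+ replicate 2 and without Morc1tg/tg replicate 3. Dlk1, Meg3 and Rasgrf1 had log2 fold changes of -0.24, -0.08 and -0.26, with adjusted p from 0.31 to 0.821. The median over the members was 0.16 against 0.00 over all genes. Cell markers differed between these libraries as well. Undifferentiated spermatogonial markers were higher in Morc1tg/tg (5 of 8; summed level 209.6 to 259 against 167 to 178 RPKM), Sertoli markers lower (3 of 8; 56.8 to 78.9 against 77.5 to 95.3), while of 6 stromal markers tested Col1a1 and Pdgfra were called higher and the list's median was -0.12 (summed level 12.2 to 13.3 against 9.11 to 10.0). The part of these cells in the member values was not tested.

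The effect of Morc1tg/tg was not the same at E16.5 and P10.5 for 3 members, in a test of the difference of the 2 effects that called 1.71% of all genes (0.893% above 0 and 0.822% below). The P10.5 effect minus the E16.5 effect was 0.75 for Igf2 (adjusted p = 0.00258), 1.28 for Cdkn1c (adjusted p = 0.000424) and 1.21 for Mest (adjusted p = 0.00539), all on the log2 scale. Each of these genes had the lower mean level in Morc1tg/tg at E16.5 and the higher at P10.5. The stages also differ in background and sorting. Of the cell markers, the same test called Gfra1 (0.98) and Etv5 (0.92) of undifferentiated spermatogonia, the endothelial Cdh5 (1.18) and Hbb-b1 (-5.04). It also called the stromal Pdgfra (1.08), while the 7 stromal markers had a median of -0.76. The part of these markers was not tested. The call for Mest was lost without Morc1tg/tg replicate 2 of E16.5.

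In whole P10.5 testis, Zim1, a zinc finger gene beside Peg3 that is usually expressed from the maternal allele, was the only 1 of 36 members called in Morc1tg/tg, against 15.3% of all genes (6.08% higher and 9.26% lower). Zim1 read 12.6, 9.77 and 11.4 RPKM in Morc1tg/tg, 8.73 in the wild type and 8.27 and 8.83 in Morc1tg/+, without overlap (log2 fold change 0.40, SE 0.08, adjusted p = 0.00909). Its call was lost without Morc1tg/tg replicate 3, which left 0 members called. Without the wild-type control 5 were called (Igf2, Dlk1, Ndn and Plagl1 with Zim1), without Morc1tg/+ replicate 2 there were 3, without Morc1tg/tg replicate 2 there were 2, and DESeq2 called 3 (Igf2 and Peg3 with Zim1). Igf2 itself was at 61.2, 57.2 and 57.8 RPKM against 57.0 in the wild type and 48.8 and 49.1 in Morc1tg/+, all above the controls (log2 fold change 0.20, SE 0.06, adjusted p = 0.0559). H19, Dlk1, Meg3 and Rasgrf1 overlapped between genotypes, with log2 fold changes of -0.04, 0.17, 0.09 and -0.40. Germ cell markers were lower in these testes (5 of 8; summed level 197 to 225 against 326 to 335 RPKM) and markers of other cells higher, namely Sertoli (3 of 9; median 0.15), Leydig (2 of 7; median 0.39; summed level 354 to 444 against 308 to 332), stromal (2 of 7), endothelial (2 of 5) and macrophage and blood markers (2 of 6). The members' median was 0.06 against 0.01 over all genes. The part of this shift was not tested.

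At P14.5, 13 of 34 members were called, 9 higher and 4 lower, and 34.8% of all genes were (14.8% higher and 20.1% lower). Meg3 was the only called gene of the paternally methylated loci. It read 6.42, 6.82 and 6.71 RPKM in Morc1tg/tg and 5.08, 5.08 and 4.53 in Morc1tg/+, without overlap (log2 fold change 0.45, SE 0.06, adjusted p = 0.000846). H19 (31.7, 34.4 and 47.1 against 27.5, 36.7 and 27.6 RPKM), Igf2 (27.1, 28.5 and 34.2 against 22.5, 28.8 and 22.5) and Dlk1 (26.0, 28.6 and 38.8 against 21.7, 31.8 and 23.2) overlapped, and the highest control of all 3 was the same Morc1tg/+ library. Their log2 fold changes of 0.31, 0.29 and 0.30 were not called (adjusted p = 0.161, 0.0795 and 0.216), nor was that of Rasgrf1 (-0.18, SE 0.30).

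Among the maternally methylated loci at P14.5, Ppp1r9a, which encodes the actin-binding protein neurabin, had the smallest adjusted p of the members. It was at 25.5, 26.7 and 27.1 RPKM in Morc1tg/tg against 18.9, 18.3 and 18.55 (log2 fold change 0.52, SE 0.05, adjusted p = 0.000271). Copg2, which encodes a coat protein of transport vesicles and overlaps Mest on the opposite strand, fell to 35.5, 33.5 and 34.0 RPKM from 45.1, 42.9 and 45.8 (log2 fold change -0.37, SE 0.05, adjusted p = 0.00118). Mest rose (log2 fold change 0.55, SE 0.14, adjusted p = 0.0143), as did Ndn (0.40), Peg10 (0.33), Peg3 (0.30), Impact (0.35), Gnas (0.29) and Zim1 (0.64), and Usp29 (-1.14), Phlda2 (-0.78) and Igf2r (-0.27) fell. Zim1 at 3.53, 2.40 and 4.30 against 2.28, 2.56 and 1.72 RPKM overlapped between genotypes, whereas Phlda2, a suppressor of placental growth, at 0.710, 0.650 and 0.603 against 1.23, 0.927 and 1.26 did not. The count rested on single libraries, with 5 members called without Morc1tg/+ replicate 3, 7 without Morc1tg/+ replicate 1 or Morc1tg/tg replicate 3, and 8 without Morc1tg/tg replicate 2. Germ cell markers were lower in these testes (6 of 8; summed level 353 to 406 against 915 to 1209.6 RPKM) and Sertoli markers higher (7 of 9; 1701 to 1979 against 1358 to 1430.1). The median of the members was 0.25 against 0.01 over all genes, and the part of the changed cell markers was not tested.

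Between the ages, the Morc1tg/tg effect differed for 2 members by the test of the difference, which called 8.22% of all genes (1.49% above 0 and 6.73% below). The effect at P14.5 minus that at P10.5 was -0.36 for Copg2 (adjusted p = 0.00457) and -0.33 for Sgce (adjusted p = 0.0333). At P10.5 Copg2 read 32.3, 32.4 and 31.1 RPKM in Morc1tg/tg against 32.3, 33.7 and 32.0. In the same test 4 of 8 germ cell markers were below 0 (Ddx4, Mael, Sycp3 and Tex101; median of the list -0.50), and their part was not tested. The Sgce call was lost when any library but Morc1tg/tg replicate 1 of P14.5 or the wild type of P10.5 was left out.

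**Figure D3:**
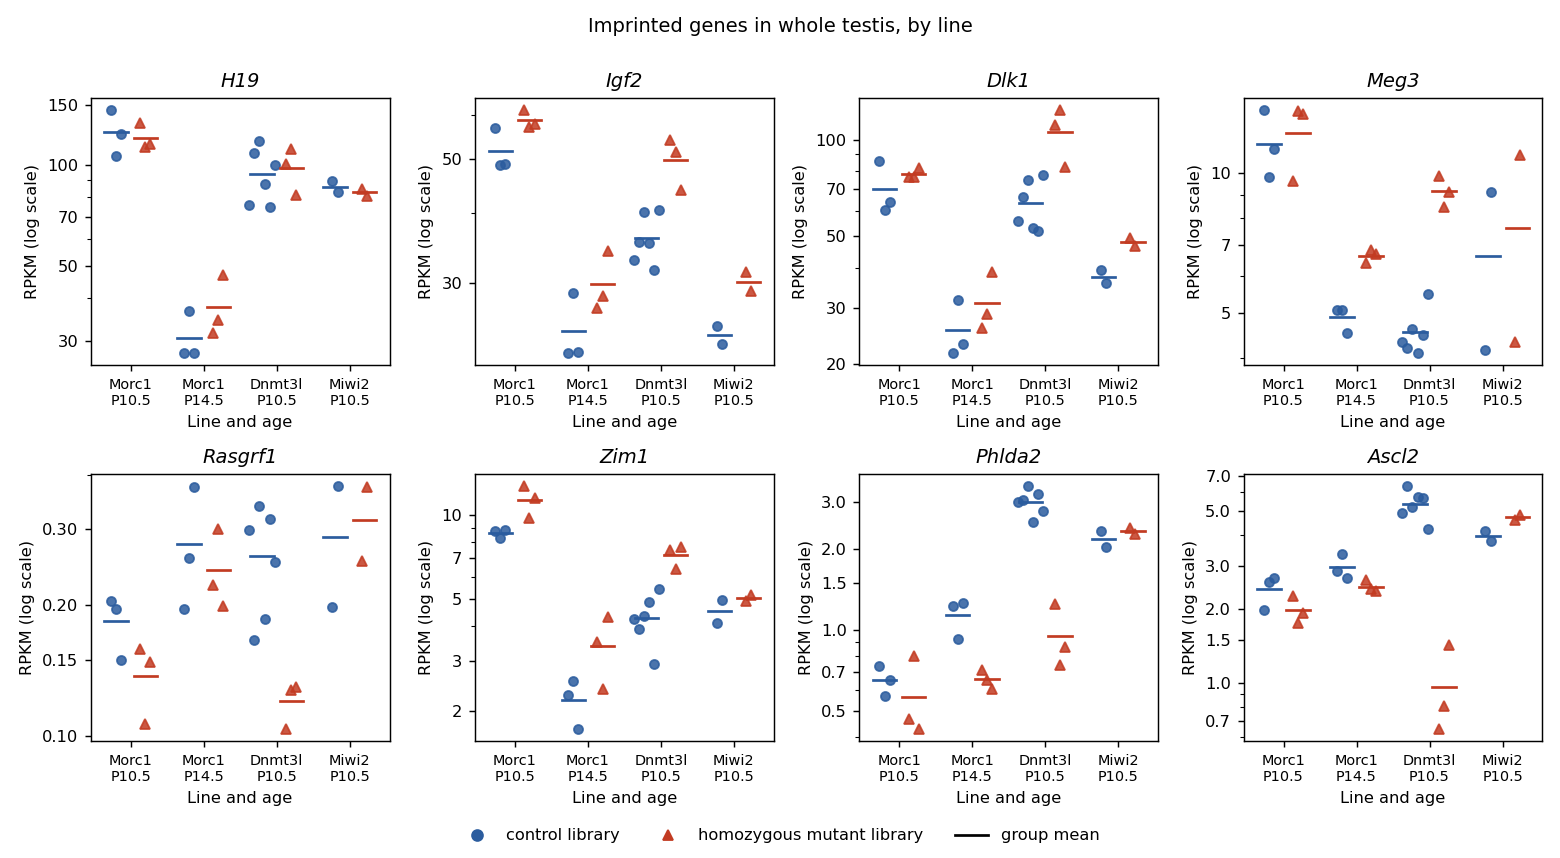
RPKM (log axis) of H19, Igf2, Dlk1, Meg3, Rasgrf1, Zim1, Phlda2 and Ascl2 in each whole testis library, by mutant line (Morc1 at P10.5 and at P14.5, then Dnmt3l and Miwi2 at P10.5), with 1 point per library and a line at each group's mean. Dnmt3l-/- points stand apart from their controls for Meg3, Igf2, Dlk1, Rasgrf1, Zim1, Phlda2 and Ascl2, but not for H19.

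In Dnmt3l-/- testis 25 of 36 members were called, 19 higher and 6 lower, where 53.9% of all genes were (24.9% higher and 29% lower). Genes of the paternally methylated loci moved in both directions. Meg3 was at 9.86, 8.45 and 9.12 RPKM in Dnmt3l-/-, and its 6 controls ranged from 4.10 to 5.51 with a median of 4.40 (log2 fold change 1.06, SE 0.09, adjusted p = 2.93e-06). Dlk1 was at 111, 123 and 82.5 RPKM against 52.1 to 77.8, median 61.2 (log2 fold change 0.78, SE 0.15, adjusted p = 0.00088). Igf2 was at 54.2, 51.5 and 44.1 RPKM against 31.7 to 40.5, median 35.5 (log2 fold change 0.52, SE 0.09, adjusted p = 0.000641). None of these overlapped with the controls. H19, however, lay inside its control range, at 101, 111 and 81.2 RPKM against 74.7 to 117, median 93.7 (log2 fold change 0.11, SE 0.15, adjusted p = 0.563). Rasgrf1 was lower, at 0.104, 0.128 and 0.130 RPKM against 0.167 to 0.339, median 0.275 (log2 fold change -1.06, SE 0.26, adjusted p = 0.00439), on 68 reads in the 3 Dnmt3l-/- libraries together.

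The steepest decreases in Dnmt3l-/- testis were at the Kcnq1 locus. Ascl2, a transcription factor gene needed in the placenta, was at 0.647, 0.805 and 1.42 RPKM against 4.24 to 6.33, median 5.44 (log2 fold change -2.42, SE 0.22, adjusted p = 3.47e-06). Phlda2 was at 1.25, 0.739 and 0.861 RPKM against 2.52 to 3.43, median 3.03 (log2 fold change -1.61, SE 0.20, adjusted p = 3.55e-05). Cdkn1c, their neighbour, rose instead, to 13.3, 16.0 and 12.3 RPKM from 9.38 to 12.1, median 10.3 (log2 fold change 0.45, SE 0.10, adjusted p = 0.00203). At other loci Inpp5f, a phosphoinositide phosphatase gene, fell to 8.53, 8.82 and 8.32 RPKM from 13.4 to 15.1, median 13.9 (log2 fold change -0.66, SE 0.06, adjusted p = 2.74e-06), and Grb10 and Copg2 fell by smaller amounts (log2 fold changes -0.29 and -0.24).

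Members that rose in Dnmt3l-/- testis included all 3 called genes around Peg10 and both called genes of the Peg3 locus. Peg3 was at 28.3, 27.2 and 26.7 RPKM against 16.3 to 20.7, median 18.9 (log2 fold change 0.60, SE 0.08, adjusted p = 4.21e-05). Zim1 was at 7.48, 6.42 and 7.66 against 2.95 to 5.43, median 4.30 (log2 fold change 0.79, SE 0.15, adjusted p = 0.000869). Peg10 was at 44.8, 37.6 and 32.5 against 18.9 to 29.0, median 24.3 (log2 fold change 0.71, SE 0.13, adjusted p = 0.000788). In all 3 genes each mutant library was above each control. Nnat, a small membrane proteolipid gene, had the largest log2 fold change of the higher maternally methylated members (0.85, SE 0.22), although its lowest mutant library, at 15.1 RPKM, was under its highest control at 15.5. Snrpn, Ndn, Igf2r, Mest, Sgce, Ppp1r9a, Plagl1, Gnas, Impact, H13 and Zrsr1 were the other called genes, with log2 fold changes from 0.21 to 0.72.

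By methylation class, 3 of 5 genes of the paternally methylated loci were higher and 1 lower (median 0.52), and 16 of 31 of the maternally methylated loci were higher and 5 lower (median 0.24), beside a median of -0.00 over all genes, of which 24.9% were higher and 29% lower. By the usual parental origin of the transcript, 12 of 20 paternally expressed members were higher and 2 lower (median 0.40), and 6 of 14 maternally expressed members were higher and 3 lower (median 0.15). The mutant testes had lower germ cell markers (8 of 8; summed level 144 to 177 against 394 to 526 RPKM), higher Sertoli markers (5 of 9; 2708 to 2813 against 1507 to 1915) and higher stromal markers (5 of 7; 1262 to 1609 against 946 to 1260.4). The part of the changed cell markers in the member values was not tested. Heterozygous and wild-type Dnmt3l testes gave no called member by edgeR, where 0.00651% of all genes were called, and 0 by DESeq2. At an unadjusted p under 0.05 there was 1 of 36 members, and the share of all genes at that threshold was not counted. The 5 genes of the paternally methylated loci had log2 fold changes from -0.19 for H19 to 0.11 for Meg3.

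In the testes labelled Miwi2-/- no member was called by edgeR, where 1.23% of all genes were (0.725% higher and 0.506% lower). DESeq2 called 2 members and 364 of all genes. At an unadjusted p under 0.05 there were 7 of 36 members, and the share of all genes at that threshold was not counted. With the replicate number as a block, edgeR called 4503 of all genes, with Igf2, Dlk1 and Meg3 among the members called. That fit had 1 residual degree of freedom, and no label pairs these libraries. Igf2 was at 31.4 and 29.0 RPKM against 25.2 and 23.3 (log2 fold change 0.30, SE 0.07, adjusted p = 0.0744), and Dlk1 at 49.4 and 46.6 against 39.2 and 35.8 (0.34, SE 0.08, adjusted p = 0.0623). Both were above their controls in each library, and they were the 2 genes called by DESeq2 and without heterozygous replicate 1. Meg3 varied most within the line, at 4.33 and 10.95 RPKM against 4.17 and 9.12, with a log2 fold change of 0.70 without the labelled mutant replicate 1 and -0.65 without replicate 2, each resting on 1 mutant-labelled library, beside 0.19 with all 4. H19 was at 84.7 and 80.9 against 89.3 and 82.7 RPKM, overlapping, and Rasgrf1 had a log2 fold change of 0.10 (SE 0.31). Stromal markers summed to 1209 to 1320 RPKM in the labelled mutants against 1019 to 1122 (0 of 7 called). Leydig markers summed to 370 to 391 against 410 to 450 (1 of 7 called, lower), and germ cell markers to 460 to 473 against 491 to 495 (0 of 8 called). The part of these markers was not tested.

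Whether Morc1 and Dnmt3l mutants affected a member differently was tested as the difference of the 2 effects in P10.5 testis, which called 17.6% of all genes (9.45% above 0 and 8.14% below) and 13 of 36 members. The Morc1 effect minus the Dnmt3l effect was 2.10 for Ascl2 (adjusted p = 0.000139), 1.36 for Phlda2 (adjusted p = 0.0162), 0.56 for Inpp5f (adjusted p = 0.000167) and -1.01 for Meg3 (adjusted p = 0.0015). In Morc1tg/tg testis these 4 genes had log2 fold changes between -0.27 and 0.09. Of Ascl2, for example, the Morc1tg/tg testes held 2.27, 1.75 and 1.93 RPKM and their controls 1.99, 2.58 and 2.67. The Dnmt3l controls held 4.24 to 6.33 RPKM of Ascl2. Phlda2 was at 0.566 to 0.734 RPKM in the Morc1 controls and 2.52 to 3.43 in the Dnmt3l controls, with 10 to 19 reads per Morc1 library. Meg3 was at 9.84 to 13.7 RPKM in the Morc1 controls and 4.10 to 5.51 in the Dnmt3l controls. Line and mutation cannot be told apart in this test. The other 9 were Peg3, Snrpn, Ndn, Cdkn1c, Peg10, Sgce, Plagl1, Gnas and Impact, with differences between -0.33 and -0.65. The count went down to 6 without Dnmt3l-/- replicate 2, to 7 without Dnmt3l-/- replicate 1, the Morc1 wild type or Morc1tg/tg replicate 2, and to 8 without Morc1tg/+ replicate 3 or Morc1tg/tg replicate 1 or 3. In the same test 7 of 8 germ cell markers were above 0 (median 0.86) and 5 of 9 Sertoli markers below 0 (median -0.32), and their part in the member values was not tested.

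**Figure D4:**
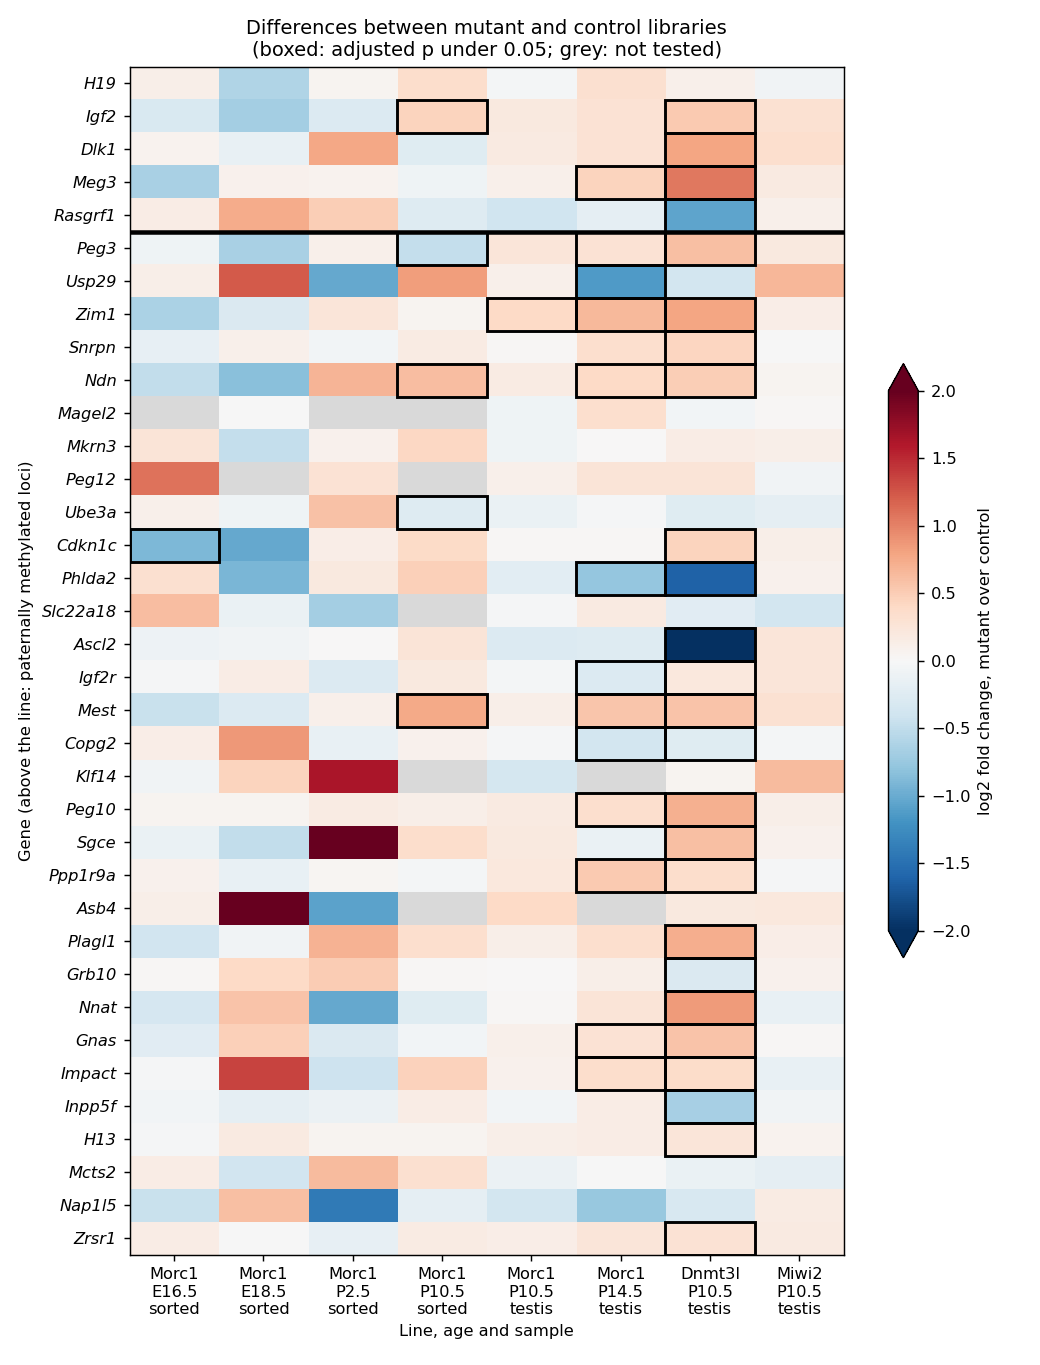
Log2 fold change, mutant over control, of the 36 imprinted genes with a row (rows, by locus) in the 8 genotype comparisons (columns), with colours clipped at 2 in either direction, boxes around called values and grey for genes not tested. The sorted E18.5, sorted P2.5 and Miwi2 columns have no box, sorted E16.5 and P10.5 Morc1tg/tg testis have 1 each, sorted P10.5 has 5, and the Dnmt3l column has the most, 25, where Ascl2 and Phlda2 are the darkest decreases.

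Control testes were also compared between ages. From P10.5 to P14.5, 18 of 35 fell and 4 rose, with 58.8% of all genes called (29.6% higher and 29.2% lower), and the median was -0.30 against 0.00 over all genes. H19 went from 145, 106 and 123 RPKM to 27.5, 36.7 and 27.6 (log2 fold change -2.03, SE 0.13, adjusted p = 2.16e-06). Dlk1 went from 85.5, 60.6 and 63.8 to 21.7, 31.8 and 23.2 (-1.46, SE 0.16) and Meg3 from 13.7, 9.84 and 11.3 to 5.08, 5.08 and 4.53 (-1.25, SE 0.10), without overlap in any of the 3. Igf2 fell by 1.08 (SE 0.10) on the log2 scale and Rasgrf1 did not pass the test (0.57, SE 0.28, adjusted p = 0.111). Plagl1 (-2.03), Zim1 (-1.98), Mest (-1.78), Magel2 (-1.62), Peg12 (-1.16), Klf14 (-1.16), Nnat (-1.15), Ndn (-0.95), Cdkn1c (-0.90), Snrpn (-0.85), Gnas (-0.79), Peg3 (-0.78), Sgce (-0.31) and Grb10 (-0.30) also fell. Usp29 (1.61), Phlda2 (0.79), Peg10 (0.57) and Copg2 (0.44) rose. Stromal markers fell with age in the same libraries (7 of 7; summed level 1172 to 1401 RPKM at P10.5 and 746 to 808 at P14.5) and germ cell markers rose (6 of 8), and their part was not tested.

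Whole testis and sorted germ cells were made with different library kits, so their levels at P10.5 stand here side by side without a test. Of 30 members with a mean of at least 1 RPKM in either, 23 were higher in all control testes than in all sorted control libraries and 3 were lower in all, where over all genes the shares were 65.1% and 18.4%. Mean levels in control testis and control sorted cells were 125 and 17.8 RPKM for H19, 70.0 and 3.96 for Dlk1, 11.6 and 0.651 for Meg3, 61.0 and 4.91 for Ndn, and 8.61 and 0.453 for Zim1. Rasgrf1 had the opposite order, with 0.184 RPKM in testis and 0.908 in sorted cells, and so did Ascl2, with 2.41 and 5.39. Cdkn1c (12.5 and 7.48), Igf2 (51.6 and 24.1) and Ube3a (17.2 and 14.4) were closer in level.

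A second list of 42 imprinted genes outside the 40, of which 37 had a row, is given beside them. In sorted P10.5 cells 0 rose and 2 of 24 fell (12.2% of all genes called), and in P10.5 Morc1tg/tg testis 4 rose and 1 of 28 fell (15.3% of all genes). At P14.5, 5 rose and 2 of 27 fell (34.8% of all genes), and in Dnmt3l-/- testis 10 rose and 7 of 29 fell (53.9% of all genes). Among these, Rtl1, a retrotransposon-derived gene of the Dlk1 locus, rose in Dnmt3l-/- testis (log2 fold change 1.13) as Meg3 and Dlk1 did, while Dio3, which ends the same locus and encodes a deiodinase, fell (-1.19), and Kcnq1 fell (-1.56) as Ascl2 and Phlda2 did. Of 18 genes for setting and keeping imprints, 3 rose and 10 fell in Dnmt3l-/- testis (median -0.27; over all genes 24.9% rose and 29% fell), with Dnmt3l itself among the 10. All 8 germ cell markers fell in the same testes, and their part in these values was not tested. In control germ cells 4 of these 18 rose and 9 fell from E18.5 to P2.5 (median -0.98; over all genes 18.1% rose and 21% fell).

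The miRNAs encoded within the imprinted loci were counted in 4 small RNA libraries of whole testis, 1 for each genotype at E16.5 (pooled testes) and P10.5, so these have no replicate check and no test. Of 59 miRNA names, 112 mature sequences were matched in RefSeq (GRCm38.p6), 106 of them in the Dlk1-Dio3 region (the span from Dlk1 to Dio3) and 2 each in H19 (miR-675), Igf2 (miR-483) and Mest (miR-335). The sequences are those of the most abundant miRNAs of the Dlk1-Dio3 region, those of the 3 other host genes, and a pair of the region sharing 1 seed, with the seed (bases 2 to 8) in capitals.

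mmu-miR-434-3p: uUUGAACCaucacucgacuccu

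mmu-miR-127-3p: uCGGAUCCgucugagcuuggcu

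mmu-miR-335-5p: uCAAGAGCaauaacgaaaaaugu

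mmu-miR-335-3p: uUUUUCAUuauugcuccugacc

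mmu-miR-483-5p: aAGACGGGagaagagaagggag

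mmu-miR-483-3p: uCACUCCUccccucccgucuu

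mmu-miR-675-5p: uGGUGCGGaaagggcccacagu

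mmu-miR-675-3p: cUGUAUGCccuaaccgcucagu

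mmu-miR-379-3p: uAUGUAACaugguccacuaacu

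mmu-miR-411-3p: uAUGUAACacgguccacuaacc

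Reads of the Dlk1-Dio3 miRNAs, counted at 20 to 25 bases, came to 3.56% of the number of reads of 20 to 23 bases in Morc1tg/+ and 3.36% in Morc1tg/tg testis at E16.5, and to 1.62% and 1.74% at P10.5. Thus the region's miRNAs were more abundant in the embryonic than in the postnatal testis in both genotypes, by 2.20 times in Morc1tg/+ and 1.93 times in Morc1tg/tg, or 1.70 and 1.25 times when scaled to all small RNA reads. The ratio of Morc1tg/tg to Morc1tg/+ was 0.943 at E16.5 and 1.07 at P10.5, or 0.813 and 1.11 when scaled to all small RNA reads. Among the miRNAs with at least 200 reads in a pair of libraries, 16 were higher and 53 lower in Morc1tg/tg at E16.5, with a median ratio of 0.793 (0.479 to 1.46). At P10.5, 45 were higher and 16 lower, with a median ratio of 1.09 (0.816 to 1.77). No miRNA outside the imprinted loci was counted, so these counts cannot be set beside a share over all miRNAs. The E16.5 libraries also differed in make-up. Reads of 20 to 23 bases were 18676008 of 36436078 in Morc1tg/+ and 13241170 of 29971430 in Morc1tg/tg. At E16.5 the ratio of the summed levels, 0.943, was above the median ratio of 0.793. The most abundant member at E16.5, miR-434-3p, was then at 5949 RPM (reads per 1000000 reads of 20 to 23 bases) in Morc1tg/+ and 6246 in Morc1tg/tg. In the same order, miR-127-3p was at 5244 and 3953 RPM, and miR-369-3p and miR-411-5p were at 2459.6 and 3019.9, and at 1699.6 and 2475. At P10.5 miR-434-3p was at 1945 and 1903 RPM and miR-127-3p at 2786 and 3150. Only 7 seeds were shared within the whole set, each by 2 names, such as miR-379-3p and miR-411-3p, so most members carry a seed of their own.

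Host genes and their miRNAs could be set side by side. At E16.5 both arms from the Igf2 intron were lower in the Morc1tg/tg library of whole testis, miR-483-5p at 156 against 349.8 RPM and miR-483-3p at 41.2 against 87.0. Igf2 itself was measured at this stage in sorted germ cells only. It was at 24.2 and 25.2 against 28.5 and 28.7 RPKM, a difference that was not called. From E16.5 to P10.5 miR-483-5p went from 349.8 to 18.9 RPM in Morc1tg/+. The arms of the Mest miRNA differed, miR-335-3p at 3671 and 4154 RPM and miR-335-5p at 1603 and 1201 in Morc1tg/+ and Morc1tg/tg at E16.5, so that 1 arm was higher and the other lower in the mutant library. At P10.5 they stood at 151 and 169, and at 525 and 742. The intervals of these values cover counting error only, and a single library per group gives no measure of the spread between animals.

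**Figure D5:**
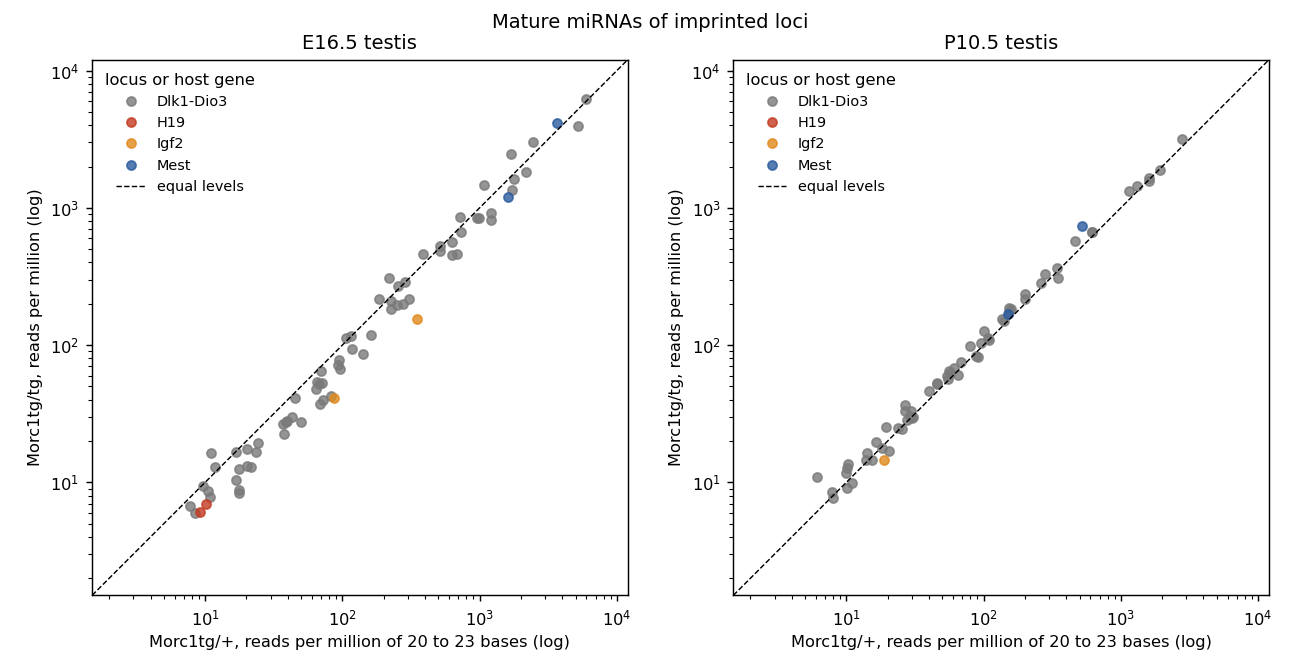
RPM in Morc1tg/tg against Morc1tg/+ whole testis (both axes log) of the miRNAs of the imprinted loci with at least 200 reads in the pair of libraries, at E16.5 and at P10.5, with 1 point per mature miRNA and the line of equal level. Most points lie below the line at E16.5 and above it at P10.5, with ratios of the Dlk1-Dio3 miRNAs between 0.479 and 1.77. Other miRNAs were not counted for comparison.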

How the data were processed

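RNA-seq of sorted germ cells (10 ng total RNA, ribosomal RNA depleted) and whole testis was processed by the authors, who trimmed reads to 50 bp, removed ribosomal reads, mapped uniquely to mm9 with Bowtie and counted reads per gene with HTSeq at default settings. They deposited raw counts and RPKM per gene and library. HTSeq counts by strand at its default, but the labels and methods do not say whether the library kits keep strand, so genes that overlap on opposite strands (Mest and Copg2, Nnat and Blcap, Zrsr1 and Commd1, Nap1l5 and Herc3, Igf2 and Igf2as, Gnas and its antisense) may share reads, as may H13 and Mcts2. For small RNA the authors deposited sequences of reads (no other unit), and these were matched here to RefSeq mature miRNAs (20 to 25 bases, up to 2 bases missing at the 3′ end) and scaled to all reads of 20 to 23 bases.

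Counts were tested with edgeR 4.0.16 (limma 3.58.1, R 4.3.3; TMM, filterByExpr, quasi-likelihood test) over all genes, separately for each comparison with the stage contrasts in 1 fit. Alternatives were DESeq2 1.42.0, DESeq2-type size factors in edgeR, no filter, the replicate number as a block, other control sets and each library left out. Differences between effects were interaction terms. On simulated counts, 2-fold changes were recovered in 62.7% (E16.5, 16630 genes), 74.6% (P10.5 sorted, 14019), 89.6% (P10.5 Morc1 testis, 15165), 83.6% (Dnmt3l, 15665), 88.1% (Miwi2, 15997) and 50.7% (the difference between germ cell stages, 16917), and 8.33%, 4.76%, 4.66%, 9.44%, 16.3% and 5% of the calls, in that order, were false. The 40 members and all lists were chosen with earlier results of these data known. Named genes are the 5 of the paternally methylated loci in every comparison of 2 groups, all called members, up to 3 called genes of the other lists, and genes singled out after their values were seen. Replicates are separate mice per the labels and no 2 libraries of a group agreed within sampling noise (other pairs were not compared). Bisulfite, ChIP and ATAC samples were not analysed here.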

Additional observations from a re-analysis of the deposited data

Results flagged for a closer look

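The effect of a mutation differed between groups, by a test of the difference itself in edgeR, for 18 of the member results. For Morc1 against Dnmt3l, 3 of 36 members were above 0 and 10 below, where 9.45% and 8.14% of all genes were. Between ages 2 of 36 were below 0 (6.73% of all genes). Between germ cell stages 3 of 36 were above 0 (0.893% of all genes). In P10.5 testis the Morc1 effect minus the Dnmt3l effect, on the log2 scale, was above 0 for Ascl2 (2.10), Phlda2 (1.36) and Inpp5f (0.56), genes that fell in Dnmt3l-/- testis. It was below 0 for genes that rose there, namely Meg3 (-1.01), Plagl1 (-0.65), Peg10 (-0.57), Gnas (-0.52), Cdkn1c (-0.48), Snrpn (-0.47), Sgce (-0.46), Peg3 (-0.41), Ndn (-0.38) and Impact (-0.33). Within the Morc1 line, the effect at P14.5 minus that at P10.5 in testis was -0.36 for Copg2 and -0.33 for Sgce. In sorted germ cells the effect at P10.5 minus that at E16.5 was 1.28 for Cdkn1c, 1.21 for Mest and 0.75 for Igf2. In the Morc1 and Dnmt3l test 7 of 8 germ cell markers were above 0 as well, and 5 of 9 Sertoli markers below 0. Line and mutation cannot be told apart there. In the 4 sorted P10.5 Morc1tg/+ libraries none of the 36 members had a single library far outside the others, judged by its gap to the next library relative to the range of the 4.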

How the results depend on the processing

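Of 1511 called values recomputed under an alternative, 1330 stayed called in the same direction and 181 did not. The number of members called moved by more than 1.5 times as follows. Without a filter on low counts it was 2 in place of 1 at E16.5, 1 in place of 0 at E18.5, 3 in place of 1 in P10.5 Morc1tg/tg testis and 1 in place of 2 for the difference between ages. DESeq2 called 4 in place of 0 at E18.5, 3 in place of 1 in P10.5 Morc1tg/tg testis and 2 in place of 0 in the testes labelled Miwi2-/-. In P10.5 Morc1tg/tg testis, Morc1tg/+ controls alone gave 5 and the preliminary pair added with a batch term gave 2.

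The paper describes the Morc1tg/+ controls as littermates of the Morc1tg/tg mice. Samples of different genotype share replicate numbers but no source pairs single libraries, and their deviations correlated at over 0.1 in all of 3 or more pairs in no comparison. Under the replicate block the counts were 2 at E16.5, 1 at E18.5, 13 in the testes labelled Miwi2-/-, 7 of the 13 for the Morc1 minus Dnmt3l difference and 1 for the difference between ages. The block moved no other count of members by over 1.5 times. In the Miwi2 line it called 4503 of all genes in place of 197, with 1 residual degree of freedom. Igf2, Dlk1 and Meg3 were among the members called higher there, Meg3 at 0.15 with adjusted p = 0.00478. The deviations of the 2 pairs correlated at 0.54, necessarily the same number for both pairs with 2 libraries per genotype.

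Leaving out each library in turn gave 1 to 2 members at E16.5, 0 to 1 at E18.5, 0 at P2.5, 4 to 6 at P10.5, 0 to 5 in P10.5 and 5 to 11 in P14.5 Morc1tg/tg testis, 25 to 26 in Dnmt3l-/- and 1 to 3 in testes labelled Miwi2-/-. For the control steps the ranges were 6 to 16, 14 to 20, 11 to 15 and, in testis, 20 to 22, and for the differences between effects 6 to 17 (Morc1 and Dnmt3l), 1 to 2 (ages) and 2 to 4 (germ cell stages). Meg3 in the Miwi2 line (0.19) ranged from -0.65 without mutant-labelled replicate 2 to 0.86 without heterozygous replicate 2. Fewer samples enter each of these fits. Over all genes, calls went from 70 to 180 without a filter and 174 with the block at E16.5, from 6 to 273 (DESeq2), 83 (no filter) and 46 (block) at E18.5, from 7 to 21, 27 and 28 at P2.5, from 2326 to 1171 (block) in P10.5 Morc1tg/tg testis, from 197 to 364 (DESeq2) and 4503 (block) in the Miwi2 line, from 2797 to 1653 (block) for Morc1 minus Dnmt3l, from 290 to 507 (no filter) for the germ cell stages and from 1 to 2 (DESeq2) and 0 (block) for Dnmt3l heterozygotes. The cause was not tested. Scaled to all small RNA reads, a choice made after seeing the data, the Dlk1-Dio3 miRNA ratio was 0.813 in place of 0.943 at E16.5 and 1.11 in place of 1.07 at P10.5, and the ratio of E16.5 to P10.5 was 1.70 in place of 2.20 in Morc1tg/+ and 1.25 in place of 1.93 in Morc1tg/tg.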
